A study of Mus musculus with 69 samples.

Results

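The genes described here are 32 mouse genes of blood coagulation and fibrinolysis, chosen by their symbols as a module of known function: clotting factors, the fibrinogen chains, natural anticoagulants, the vitamin K cycle, plasminogen and its regulators. All 32 were found among the 55367 gene symbols of the count and TPM tables. All 32 also passed the filter on low counts that left 14398 genes for testing. They were measured by sequencing of polyadenylated RNA in 69 liver libraries from C57/Bl6J mice on a high-fat diet. Livers were taken every 3 hours, at clock hours 2, 5, 8, 11, 14, 17, 20 and 23, with 2 to 4 libraries per group and hour. The series describes the mice as hepatocyte-specific for JNK spliceoforms, and every library carries the same genotype label, J1 J2 lf/lf. The control group (24 libraries) is labelled GFP, the JNK7a group (22 libraries) CRE and the JNK7b group (23 libraries) FLPO. The labels do not say which JNK spliceoform each recombinase leaves in the hepatocyte, how GFP, CRE and FLPO were delivered, or the age, sex and light schedule of the mice. Nor do they state that each library is a separate animal, so p-values measure the spread between libraries.

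Clotting is a chain of proteases that circulate as inactive precursors. Tissue factor with factor VII, or the contact system with factor XI, leads to factor X, which with factor V turns prothrombin into thrombin. Thrombin cuts fibrinogen into fibrin, while antithrombin, heparin cofactor II and protein C restrain it. Plasmin, made from plasminogen, later dissolves the clot. Hepatocytes make most of these proteins and secrete them into plasma, whereas factor VIII, von Willebrand factor, thrombomodulin and tissue plasminogen activator come mainly from endothelial cells. In whole-liver RNA, fewer cells of a type and less RNA per cell cannot be told apart.

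Library totals ran from 26.8 M to 48.6 M estimated counts, with a median of 32.7 M. The gene-level counts of Mapk8 (JNK1) and Mapk9 (JNK2), the JNK genes that the genotype label names, do not resolve spliceoforms and so do not check the group labels. Mapk8 stood at 17.8 ± 2.29 CPM (counts scaled to the library total, SD, n = 24) in control, 14.6 ± 3.28 (n = 22) in JNK7a and 17.7 ± 2.15 (n = 23) in JNK7b. For Mapk9 the levels were 49.9 ± 10.5, 41.0 ± 4.56 and 56.7 ± 7.91 CPM. The library labelled control 8 h replicate 3 had 14.1 CPM of Mapk9, against a control median of 52.7. It and JNK7b 5 h replicate 2 were known from earlier results to stand apart, and the counts of members called are also given without both. JNK7b 5 h replicate 2 had 54.7 CPM of F11 and 86.1 CPM of F7, where the other library of that cell had 27.2 and 56.1. All 9 hepatocyte markers passed the filter, with a summed level of 82092 to 112328 CPM in control, 83244 to 153948 in JNK7a and 64626 to 105188 in JNK7b. The 4 platelet markers that could be tested summed to at most 18.3 CPM in any library. Ppbp, Gp9, Gp1ba, Gp1bb, Treml1 and Tubb1 did not pass the filter.

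In control liver the members spanned about 4 orders of magnitude per transcript length. On the TPM scale (transcripts scaled for gene length and library total), Serpinc1, which encodes antithrombin, was highest at 3001 ± 255 (SD, n = 24). The fibrinogen gamma and alpha chains, Fgg at 1866 ± 483 and Fga at 1707 ± 431 TPM, followed and did not differ beyond their spread. F2 (prothrombin) at 1027 ± 87.6, Kng1 (high-molecular-weight kininogen) at 1007 ± 93.3, Plg (plasminogen) at 878 ± 95.9 and Fgb (fibrinogen beta chain) at 864 ± 197 TPM formed the next block, again with overlapping spreads. These are the bulk plasma proteins of the system. Hrg, Proc, Serpinf2, Serpind1, F12, Cpb2, Vkorc1, F10, Kng2, Proz, F9, F5 and F13b lay between 599 and 101 TPM. Klkb1 was at 68.9, F7 at 46.0, Ggcx at 23.9, F11 at 22.4 and Pros1 at 21.1 TPM. The 7 lowest were Vwf (3.84), Tfpi (2.64), F3 (2.00), F8 (1.85), Thbd (1.11), Plau (0.674) and Plat (0.301 TPM). This low end holds the genes with a mainly endothelial or non-hepatocyte source. Plat was at 0 in 2 libraries. Together the 32 members made up 1.37% ± 0.162 of all TPM in control, 1.42% ± 0.172 in JNK7a and 1.25% ± 0.132 in JNK7b. The fibrinogen chains alone made up 0.444% ± 0.110, 0.483% ± 0.110 and 0.395% ± 0.0865.

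Fga, Fgb and Fgg encode the chains of one hexameric protein and lie side by side on chromosome 3 (mm10). Fgg spans 83007724 to 83015049 on the plus strand, Fga 83026076 to 83033627 on the plus strand and Fgb 83040141 to 83049863 on the minus strand. Their promoters are shown because these neighbours varied together more closely than any other members. With each group and hour centred, the correlation of log2 CPM over 69 libraries was 0.97 for Fgb with Fgg, 0.97 for Fga with Fgb and 0.95 for Fga with Fgg. The next pair, Proz with Plg, stood at 0.87. The points share library and depth, and the values are given as a description. Each sequence runs 5′ to 3′ on the strand of the gene, from 250 bases before to 50 bases after the RefSeq start (GRCm38.p6): Fga at chr3:83025903-83026202, Fgb at chr3:83049814-83050113 and Fgg at chr3:83007474-83007773. Capitals mark 3 motifs searched on both strands: GTTAAT (core of the site of HNF1, a hepatocyte transcription factor), CTGGGAA (interleukin-6 response element of acute phase genes) and AGGTCA (bound by nuclear receptors).
Fga: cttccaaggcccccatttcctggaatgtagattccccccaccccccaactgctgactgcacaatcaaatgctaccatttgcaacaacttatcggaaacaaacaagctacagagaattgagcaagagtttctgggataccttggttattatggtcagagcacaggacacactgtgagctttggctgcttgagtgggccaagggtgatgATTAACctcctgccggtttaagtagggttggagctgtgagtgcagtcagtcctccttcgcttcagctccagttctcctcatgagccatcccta
Fgb: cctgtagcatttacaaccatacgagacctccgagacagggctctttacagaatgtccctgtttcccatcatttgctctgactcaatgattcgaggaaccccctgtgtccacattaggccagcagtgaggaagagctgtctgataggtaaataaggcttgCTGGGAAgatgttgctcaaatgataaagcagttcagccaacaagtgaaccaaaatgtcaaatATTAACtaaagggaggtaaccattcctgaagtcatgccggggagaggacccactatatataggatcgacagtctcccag
Fgg: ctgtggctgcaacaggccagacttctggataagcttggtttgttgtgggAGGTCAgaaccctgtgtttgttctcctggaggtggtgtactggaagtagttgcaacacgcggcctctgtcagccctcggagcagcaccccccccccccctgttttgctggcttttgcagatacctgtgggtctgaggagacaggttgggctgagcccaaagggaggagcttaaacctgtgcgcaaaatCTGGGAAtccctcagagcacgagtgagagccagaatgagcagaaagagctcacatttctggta

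The HNF1 core (printed as ATTAAC, its reverse complement) lay at -43 to -38 in Fga and -29 to -24 in Fgb. The CTGGGAA motif lay at -91 to -85 in Fgb and -13 to -7 in Fgg. Of 32544 RefSeq promoters of this length, 7.1% hold GTTAAT, 11.0% CTGGGAA and 16.2% AGGTCA. Promoters were matched for 25 members. A member was counted when any of its RefSeq promoters held the motif, whereas the percentages are of single promoters. The counts and percentages are therefore unlike measures. GTTAAT was present in 5 of them (F13b, F2, Fga, Fgb and Proz), CTGGGAA in 5 (F9, Fgb, Fgg, Kng2 and Tfpi) and AGGTCA in 10 (F10, F2, F5, F7, F9, Fgg, Kng2, Serpind1, Serpinf2 and Tfpi). The clock motif CACGTG (E-box) was present in Tfpi alone, against 7.2% of all promoters. A match is a description of letters, not of binding.

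In JNK7a liver 14 of the 32 members were higher than in control and none was lower, though DESeq2 also called Vwf lower. They were F7 of the extrinsic start, Klkb1, Kng1 and F11 of the contact system, F10 of the common pathway, the fibrinogen chains with F13b, the anticoagulants Serpind1, Proc and Proz, Vkorc1 of the vitamin K cycle, and Serpinf2, the plasmin inhibitor. Except for F11, the rises were between 1.07-fold (F13b) and 1.27-fold (F7). The test was edgeR's quasi-likelihood test on the mean difference over the 8 clock hours, with Benjamini-Hochberg adjustment over 14398 genes and a threshold of 0.05. Across all genes tested, 9.66% were called higher and 11.1% lower. Among the 1260 genes with at least 100 CPM these shares were 21.4% and 23.6%, and 11 of the 20 members in that range were higher. The members' median log2 fold change was 0.10, with 26 of 32 above 0, beside 0.0035 over all genes. Over genes of at least 100 CPM the median was 0.0070. The hepatocyte markers split, with 3 of 9 higher and 2 lower. T and NK cell markers were higher for 7 of 10, at a low level, with a median sum of 3.43 CPM in control and 7.97 in JNK7a. B and plasma cell markers were higher for 3 of 7, with a median sum of 13.2 CPM in control and 81.4 in JNK7a. Of 7 adipocyte markers, Adipoq, Plin1, Lep and Retn did not pass the filter. Of the 3 tested (Adrb3, Cidec and Fabp4) 2 were lower and 1 higher. The median sum over all 7 was 46.3 CPM in control and 11.9 in JNK7a, and whether it follows the number of adipocytes was not tested. These marker lists are given as counts. Their part in the members' changes was not tested. Without the 2 libraries that stand apart, 15 members were called, beside 3022 of 14378 genes. With limma on log2(TPM + 1) 7 were called, of which 6 were higher and 1, F9, lower. On that scale 4.9% of all genes were higher and 16.8% lower, and their median was -0.04. The calls of the fibrinogen chains, F13b, Serpind1, Proz, Vkorc1 and Serpinf2 ended on that scale and with hours 8, 11, 20 and 23 alone. F7, Klkb1, Kng1, F11, F10 and Proc were called under all 13 alternatives described in the closing section.

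**Figure D1:**
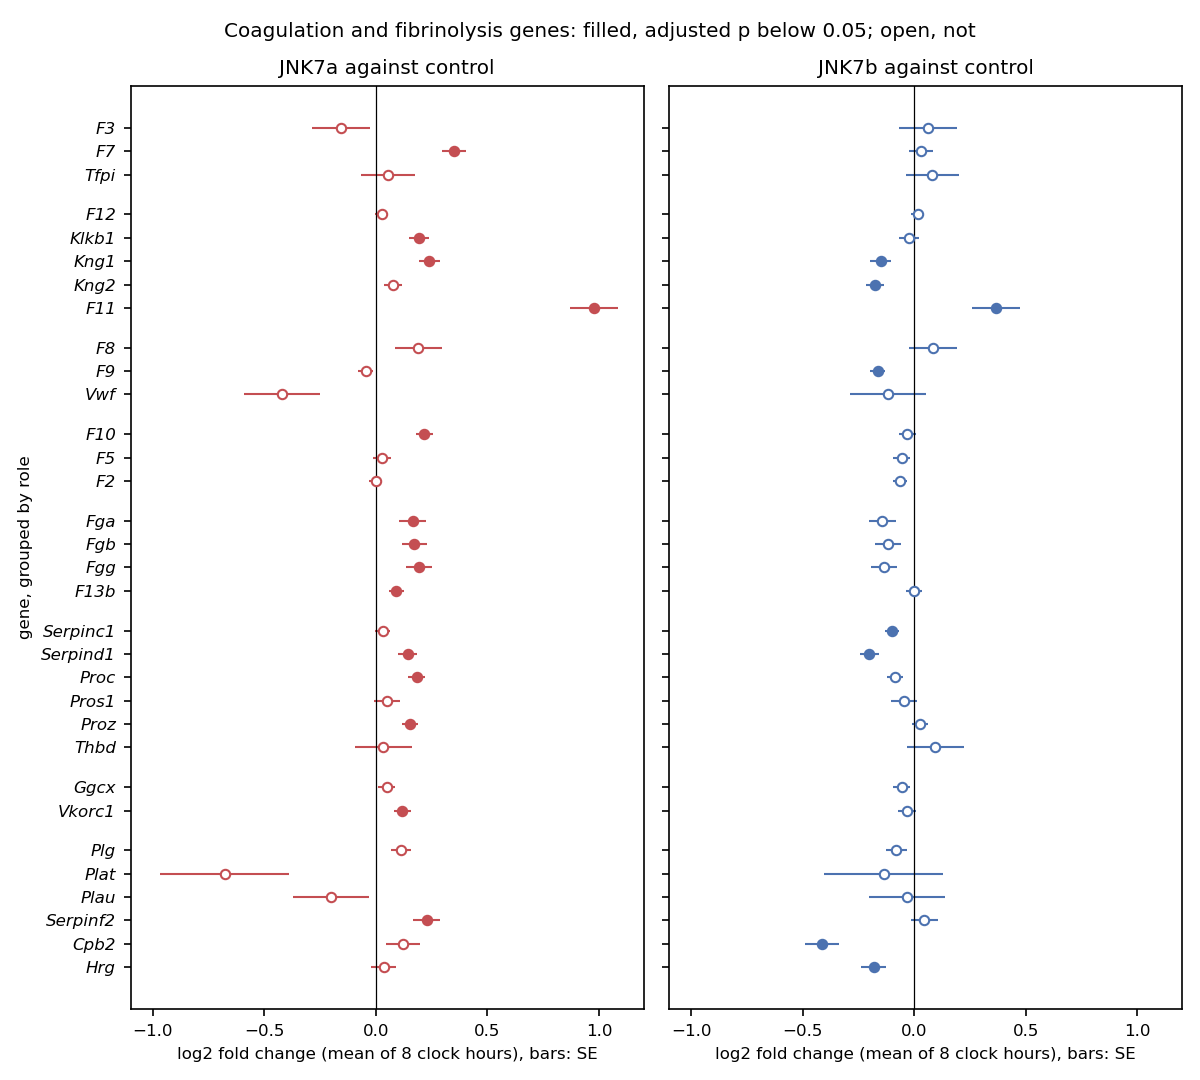
Log2 fold change of each of the 32 members (mean over 8 clock hours, bars are standard errors) in JNK7a against control, left, and JNK7b against control, right, with filled points for adjusted p below 0.05. In JNK7a 14 filled points lie above 0 and none below, with F11 farthest at 0.98, while in JNK7b F11 is the only filled point above 0 and 7 lie below.

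F11, the factor XI precursor activated by the contact system and by thrombin, showed the largest change of the module. Its level in control libraries was 19.8 CPM at the lowest, 34.5 at the median and 66.3 at the highest. In JNK7a it ran from 42.2 over 66.1 to 130.5 CPM, and in JNK7b from 18.9 over 41.0 to 84.0 CPM. All 22 JNK7a libraries lay above the control median and 11 above the highest control library, although the groups overlapped. The log2 fold change in JNK7a was 0.98 (SE 0.11), a 1.97-fold rise with adjusted p = 6.92e-10. In JNK7b F11 also rose, by 0.37 (SE 0.11, adjusted p = 0.014), and the direct comparison of JNK7b with JNK7a gave -0.61 (SE 0.11, adjusted p = 2.14e-05). The JNK7b call against control ended without JNK7b 5 h replicate 2 (log2 fold change 0.29, adjusted p = 0.064) and without clock hour 23 (0.32, adjusted p = 0.077), and at either set of 4 hours alone. At 8 h the mean levels of control and JNK7a were 47.9 and 47.7 CPM, whereas at 17 h they were 37.1 and 98.9 CPM. That spread over hours did not pass the test of a difference varying with clock hour (adjusted p = 0.42).

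F11 spans 45241174 to 45262031 on the minus strand of chromosome 8 (mm10), 4.7 kb from Klkb1, the plasma prekallikrein gene, at 45266689 to 45294859. Klkb1 had 200.7, 285.0 and 372.5 CPM (lowest, median, highest) in control, and 228.5, 325.7 and 390.1 CPM in JNK7a. The distributions overlapped widely, yet 21 of 22 JNK7a libraries were above the control median. Klkb1 rose by 0.19 (SE 0.04, adjusted p = 0.00092) in JNK7a and differed by -0.03 (SE 0.04, adjusted p = 0.79) in JNK7b. Gm45753, a transcript that overlaps Klkb1 and shares 43.0% of its 31-base words, had 1.30 CPM in control. Summing their counts left the change of Klkb1 at 0.19 (SE 0.04). Beyond Klkb1 lies Cyp4v3, a fatty acid hydroxylase gene, which also rose in JNK7a by 0.19 (SE 0.07, adjusted p = 0.048). The next gene, Fam149a, differed by -0.02 (SE 0.04, adjusted p = 0.79).

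Kng1 and Kng2 encode kininogens, the cofactors of the contact system and source of bradykinin, and F12 encodes factor XII, which starts it. Kng1 in control ran from 1326 over 1487 to 1780 CPM, in JNK7a from 1381 over 1729 to 2423, and in JNK7b from 1001 over 1345 to 1752. In JNK7a 9 libraries exceeded every control library, and in JNK7b 10 fell below every control library. Kng1 rose by 0.24 (SE 0.05, adjusted p = 0.00013) in JNK7a and fell by 0.15 (SE 0.05, adjusted p = 0.026) in JNK7b. For Kng2 the medians were 191.2 CPM in control, 198.9 in JNK7a and 170.4 in JNK7b. Kng2 differed by 0.08 (SE 0.04, adjusted p = 0.19) in JNK7a and fell by 0.18 (SE 0.04, adjusted p = 0.0017) in JNK7b. Because 26.5% of the 31-base words of Kng1 also occur in Kng2, the split of counts between them is uncertain. Their summed count rose by 0.22 (SE 0.05) in JNK7a and fell by 0.15 (SE 0.05) in JNK7b. F12 was flat, with medians of 365.4, 368.5 and 367.0 CPM and differences of 0.03 and 0.02 (SE 0.03 each), neither called.

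**Figure D2:**
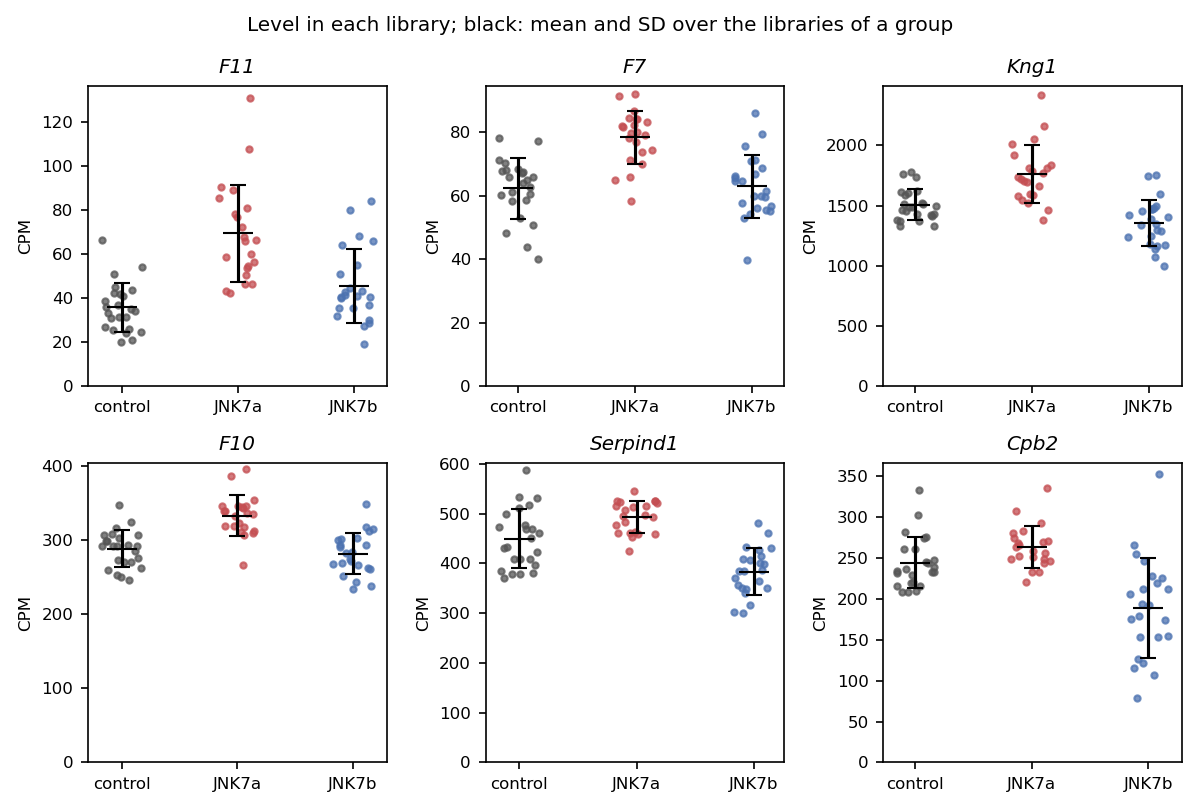
Level in CPM of F11, F7, Kng1, F10, Serpind1 and Cpb2 in each library by group, with the mean and SD in black, on axes that start at 0. For F11 the JNK7a libraries run from 42.2 to 130.5 CPM against 19.8 to 66.3 in control, and for Cpb2 the JNK7b libraries run from 78.6 to 353.3 CPM.

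F7, F10 and Proz lie in a row on chromosome 8 (mm10, plus strand), F7 at 13026034 to 13035809, F10 1.5 kb beyond it at 13037308 to 13056676, and Proz 4.2 kb further at 13060914 to 13076026. F7 encodes factor VII, the partner of tissue factor. It had 40.1, 64.7 and 78.1 CPM (lowest, median, highest) in control and 58.5, 80.0 and 92.0 CPM in JNK7a, where 13 of 22 libraries exceeded every control library. F7 rose by 0.35 (SE 0.05, adjusted p = 1.09e-06) in JNK7a, and differed by 0.03 (SE 0.05, adjusted p = 0.77) in JNK7b. F10, the factor X gene, had medians of 292.5 CPM in control, 336.2 in JNK7a and 282.4 in JNK7b. It rose by 0.22 (SE 0.04, adjusted p = 2.72e-05) in JNK7a, in all 8 clock hours, and differed by -0.03 (SE 0.04) in JNK7b. Proz, whose product helps inhibit factor Xa, rose by 0.15 (SE 0.04, adjusted p = 0.0010) in JNK7a, from a median of 289.1 to 315.4 CPM. All 3 of these neighbours rose in JNK7a. The next genes, Pcid2 and Cul4a, differed there by -0.07 (SE 0.05) and -0.06 (SE 0.03) and were not called. Farther out, Lamp1 differed by 0.01 (SE 0.03) and was not called. Grtp1, 96.0 kb from Proz, rose by 0.30 (SE 0.07, adjusted p = 0.0013).

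Among the other starters and cofactors, F9 was the only member that edgeR called against control. F3 (tissue factor) and Tfpi (its inhibitor) had medians of 2.51 and 4.03 CPM in control and were called in no comparison of groups. F5 (factor V) had medians of 597.6, 614.9 and 598.0 CPM and F2 medians of 1470, 1482 and 1430 CPM in control, JNK7a and JNK7b. Neither was called in any of the 3 comparisons. Of the factors missing in haemophilia, F8 had medians of 9.29, 9.95 and 9.96 CPM and was not called. F9 had 211.2 CPM at the median in control, 201.6 in JNK7a and 186.6 in JNK7b. F9 fell by 0.16 (SE 0.03, adjusted p = 0.00043) in JNK7b, with 6 of 23 libraries below every control library and 1 above all of them. Vwf, the platelet-binding carrier of factor VIII, had 3.89, 8.86 and 24.8 CPM in control and 3.60, 7.58 and 12.5 CPM in JNK7a. Its difference of -0.42 (SE 0.17) missed the threshold at adjusted p = 0.073. DESeq2 called it lower (adjusted p = 0.044), as did 3 of 69 edgeR fits with 1 library left out. Of the 11 sinusoidal endothelial markers 1 was lower in JNK7a, and of the 11 vascular endothelial markers none was called.

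The fibrinogen chains rose together in JNK7a, and F13b, the carrier subunit of the clot-crosslinking factor XIII, rose slightly. Fgg ran from 1532 over 2114 to 3758 CPM in control, from 1831 over 2526 to 4184 in JNK7a and from 1136 over 2080 to 2984 in JNK7b. The ranges overlapped almost completely, and 18 of 22 JNK7a libraries lay above the control median. In JNK7a Fga rose by 0.16 (SE 0.06, adjusted p = 0.043), Fgb by 0.17 (SE 0.06, adjusted p = 0.025) and Fgg by 0.19 (SE 0.06, adjusted p = 0.012). In JNK7b they differed by -0.14, -0.12 and -0.14 (SE 0.06 each) and were not called. Leaving out JNK7b 20 h replicate 3 brought all 3 below the threshold, at adjusted p of 0.021, 0.042 and 0.029. Against JNK7a, JNK7b was lower by -0.31, -0.29 and -0.33 (adjusted p = 0.00013, 0.00016 and 2.88e-05). The JNK7a calls of all 3 chains also ended without clock hour 2, at adjusted p of 0.125, 0.093 and 0.059. F13b rose by 0.09 (SE 0.03, adjusted p = 0.048), a call that 37 of 69 fits with 1 library left out did not keep, as 23 of 69 did not for Fga (adjusted p up to 0.092). Plrg1, the gene beside Fgb, differed by 0.07 (SE 0.04) in JNK7a and was not called.

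Among the anticoagulants, Proc (protein C) and Serpind1 (heparin cofactor II) rose with Proz in JNK7a, while Serpind1 and Serpinc1 fell in JNK7b. Serpind1 ran from 369.5 over 441.2 to 588.1 CPM in control, from 423.9 over 496.4 to 545.8 in JNK7a and from 300.8 over 385.3 to 481.7 in JNK7b. In JNK7b 9 libraries lay below every control library, and 18 of 23 lay below every JNK7a library. Serpind1 rose by 0.14 (SE 0.04, adjusted p = 0.0097) in JNK7a and fell by 0.20 (SE 0.04, adjusted p = 0.00042) in JNK7b. Proc had medians of 375.4, 418.6 and 330.2 CPM, with a rise of 0.18 (SE 0.04, adjusted p = 0.00014) in JNK7a and a difference of -0.09 (SE 0.04, adjusted p = 0.11) in JNK7b. Serpinc1 fell by 0.10 (SE 0.03, adjusted p = 0.030) in JNK7b, from a median of 1678 to 1556 CPM, a call lost in 7 of 69 fits with 1 library left out. Pros1 (protein S, the cofactor of protein C) and Thbd (thrombomodulin, which makes thrombin activate protein C) were called in no comparison. In the vitamin K cycle, which modifies several of these factors before secretion, Vkorc1 (the epoxide reductase and warfarin target) rose by 0.12 (SE 0.04, adjusted p = 0.023) in JNK7a. Ggcx, the carboxylase, differed by 0.05 (SE 0.04). Vkorc1 shares 46.0% of its 31-base words with Gm21974, whose counts were near 0, at 0.087 CPM in control.

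On the side of fibrinolysis, JNK7a differed from control in Serpinf2, the main plasmin inhibitor, and JNK7b in Cpb2 and Hrg. Serpinf2 had 348.8, 492.6 and 813.3 CPM (lowest, median, highest) in control, 433.5, 579.1 and 823.3 in JNK7a, and 354.6, 487.7 and 774.9 in JNK7b. It rose by 0.23 (SE 0.06, adjusted p = 0.0041) in JNK7a, and 19 of 22 libraries lay above the control median. Cpb2 encodes the carboxypeptidase also called TAFI, which slows fibrinolysis by trimming fibrin. It ran from 208.5 over 235.9 to 333.5 CPM in control, from 220.6 over 261.1 to 335.4 in JNK7a and from 78.6 over 192.1 to 353.3 in JNK7b. In JNK7b 14 of 23 libraries lay below every control library and 1 above all of them. Cpb2 fell by 0.41 (SE 0.08, adjusted p = 8.39e-05) in JNK7b and differed by 0.12 (SE 0.08, adjusted p = 0.30) in JNK7a. Hrg, a plasma protein that binds plasminogen and heparin, fell by 0.18 (SE 0.06, adjusted p = 0.019) in JNK7b, from a median of 731.4 to 630.0 CPM. It lies 24.2 kb from Kng2 on chromosome 16. On the other side of Hrg, 11.3 kb away, lies Fetub, which rose by 0.44 (SE 0.06) in JNK7a and fell by 0.34 (SE 0.06) in JNK7b. Beyond it Ahsg rose by 0.20 (SE 0.05) in JNK7a. Both encode fetuins, secreted hepatocyte proteins. Plg differed by 0.11 (SE 0.05, adjusted p = 0.079) in JNK7a and by -0.08 (SE 0.05, adjusted p = 0.275) in JNK7b. Plat and Plau, the tissue and urokinase plasminogen activators, had medians of 0.518 and 1.03 CPM in control, and neither was called.

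In JNK7b liver, then, 8 of 32 members differed from control: F11 was higher, and Kng1, Kng2, F9, Serpinc1, Serpind1, Cpb2 and Hrg were lower. Across all genes tested, 6.59% were higher and 6.85% lower. Among genes of at least 100 CPM these shares were 7.30% and 19.0%, and 7 of the 20 members in that range were lower. The median log2 fold change of the members was -0.06, beside -0.0052 over all genes and -0.04 over genes of at least 100 CPM. Of the 9 hepatocyte markers 3 were lower and none higher, among them Alb (albumin), which fell by 0.21, and Ttr (transthyretin), which fell by 0.28. T and NK cell markers were higher for 3 of 10 and lower for 1, with a median sum of 6.16 CPM in JNK7b. B and plasma cell markers were higher for 2 of 7, Kupffer cell markers for 2 of 12 and adipocyte markers for 1 of 3 tested, with none lower. Their part in the members' changes was not tested. Without the 2 libraries that stand apart the count was again 8, beside 1765 of 14378 genes. It was 11 without JNK7b 20 h replicate 3. Leaving out control 2 h replicate 1 or JNK7b 5 h replicate 1 gave 5. With hours 8, 11, 20 and 23 alone 8 members were called, all lower, beside 10.1% of all genes lower. With hours 2, 5, 14 and 17 alone none was called, beside 0.111% of all genes. F11 was called at neither set of hours alone.

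Set directly against JNK7a, JNK7b had 21 members lower and none higher. All genes tested gave 10.9% higher and 11.4% lower. Genes of at least 100 CPM gave 16.3% higher and 33.0% lower, and 17 of the 20 members in that range were lower. Cpb2 (-0.53, SE 0.08), F11 (-0.61, SE 0.11), Kng1 (-0.39, SE 0.05) and Serpind1 (-0.35, SE 0.04) had the largest differences among the members called. In Serpind1 and in Proc no JNK7b library reached the JNK7a median. The calls of F13b and Ggcx were lost in 44 and 30 of 69 fits with 1 library left out. With hours 8, 11, 20 and 23 alone Plat was called higher (1.36, adjusted p = 0.032). The median over the members was -0.14, beside -0.0054 over all genes and -0.04 over genes of at least 100 CPM. Of the hepatocyte markers 6 of 9 were lower. F3, Tfpi, F12, F8, Vwf, F5, F2, Pros1, Thbd, Plat and Plau were the 11 members not called. The 3 comparisons share their libraries in pairs and are not independent of each other.

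Several members also followed the clock. A 24 h rhythm, tested as a cosine and a sine per group in edgeR, was called for 10 members in control, beside 23.6% of all genes, for 11 in JNK7a, beside 26.2%, and for 8 in JNK7b, beside 17.0%. The fibrinogen chains were rhythmic in all 3 groups. Fgg in control averaged 3133 CPM at 8 h and 1751 CPM at 20 h, in JNK7a 3524 and 2059, and in JNK7b 2531 and 1476. Peaks and folds come from a separate least-squares fit to log2 CPM within each group. The fitted peak of Fgg was at 7.43 h (SE 0.49) in control, 7.68 h (SE 0.51) in JNK7a and 6.35 h (SE 0.75) in JNK7b, with peak-to-trough folds of 1.65, 1.68 and 1.70. Fga peaked at 6.89, 7.19 and 6.07 h and Fgb at 7.90, 7.96 and 6.11 h. The fitted peaks of the chains thus fell between 6.07 and 7.96 h in every group.

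**Figure D3:**
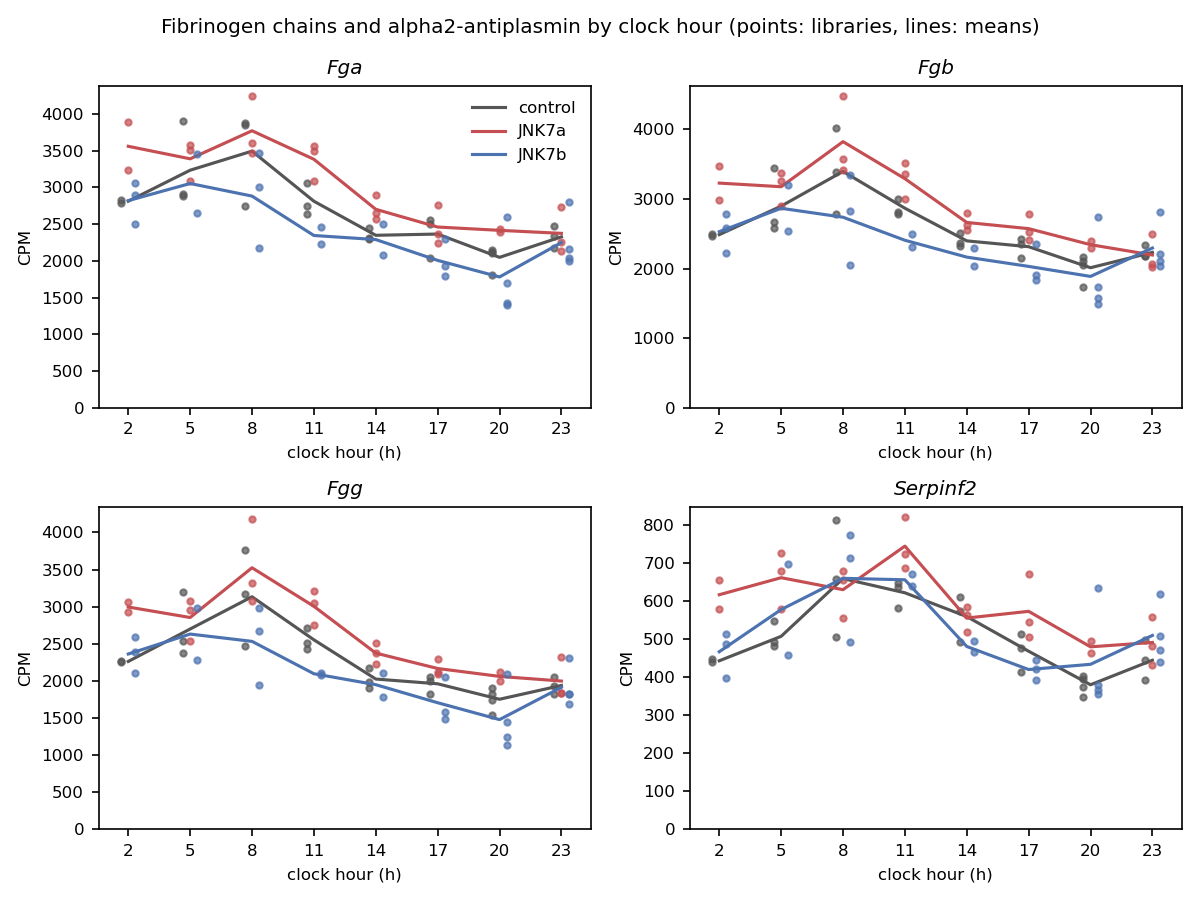
Level in CPM of Fga, Fgb, Fgg and Serpinf2 at each clock hour, with points for libraries (shifted sideways by group) and lines for group means, on axes that start at 0. The mean of Fgg falls from 3133 CPM at 8 h to 1751 CPM at 20 h in control, and the JNK7a line lies above the control line at all 8 hours.

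The plasmin inhibitor Serpinf2 was rhythmic in all groups as well, peaking at 9.69 h (SE 0.56) in control, 8.66 h (SE 0.83) in JNK7a and 7.82 h (SE 1.11) in JNK7b. F5 peaked late in the evening, at 22.5, 22.1 and 22.8 h, with folds of 1.24 to 1.28. Proc peaked at 14.1 h in control and 14.9 h in JNK7a, and Proz at 18.2 and 19.2 h, and neither was called in JNK7b. F7 (16.8 h) and Serpind1 (12.3 h) were called in control alone and Klkb1 in control (11.0 h) and JNK7b (11.5 h). F11 (17.1 h, 1.87-fold), Ggcx and Vkorc1 were called in JNK7a alone, F3 in JNK7a and JNK7b, and F9 in JNK7b. A 12 h component, added to the same fit, was called for 5 members in JNK7b: Kng2, F11, F9, Proc and Cpb2. In control and JNK7a it was called for 0 members. Of the 14398 genes tested, the 12 h component was called for 78 in control, 15 in JNK7a and 1958 in JNK7b. The 5 of 32 members in JNK7b thus stand beside calls over many other genes. Whether the members exceed that background was not tested. The direct tests of a difference in rhythm between groups called no member, and almost no gene, so they do not show that rhythms were alike. With JNK7a against control the background was 0.00695% of genes, and it was 0% in both comparisons of JNK7b. At an unadjusted p below 0.05 there were 3, 3 and 4 members, and limma with voom weights also called none. For scale, Dbp, a clock output gene, had a peak-to-trough fold of 90.5 in control and peaked at 15.9 h, and all 18 clock and PAR bZIP genes listed were rhythmic in each group.

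Differences between groups that vary from hour to hour were tested by an interaction over the 8 hours in edgeR. No member was called in JNK7a (5 at unadjusted p below 0.05, background 0.00695%) or in JNK7b (8 at unadjusted p below 0.05, background 1.72%). limma with voom weights called 0 in JNK7a and 3 in JNK7b, the latter beside 3.8% of all genes. A narrower test set the mean of hours 8, 11, 20 and 23 against that of hours 2, 5, 14 and 17, a split taken from earlier results of these data. In JNK7a against control no member differed in that shift (1 at unadjusted p below 0.05, 0 with voom weights, background 0%). In JNK7b against control 1 did, Cpb2, beside a background of 4.83%.

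Cpb2 in JNK7b stood at 248.9 ± 20.8 CPM (n = 3) at 2 h and 232.9 ± 19.1 (n = 2) at 5 h, close to the control means of 238.5 and 233.8. At 8 h it was 174.3 ± 19.4 (n = 3), and at 11 h the 2 libraries had 78.6 and 115.5 CPM, where 3 control libraries had 208.6 to 233.5. At 20 h the JNK7b libraries had 153.9, 107.0, 353.3 and 153.2 CPM, the third standing far above the rest, and at 23 h they had 122.1, 126.7, 212.4 and 179.3. The shift between the sets of hours differed by -0.51 on the log2 scale between JNK7b and control (SE 0.15, adjusted p = 0.040). With all filters on low counts removed, or without the 2 libraries that stand apart, no member was called. Leaving out single libraries gave 0 to 3, with 0 without control 8 h replicate 3, JNK7b 5 h replicate 2, JNK7b 11 h replicate 1 and several others. F9 (-0.21, SE 0.07, adjusted p = 0.059) and Serpind1 (-0.24, SE 0.08, adjusted p = 0.087) had the next smallest p and missed the threshold.

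**Figure D4:**
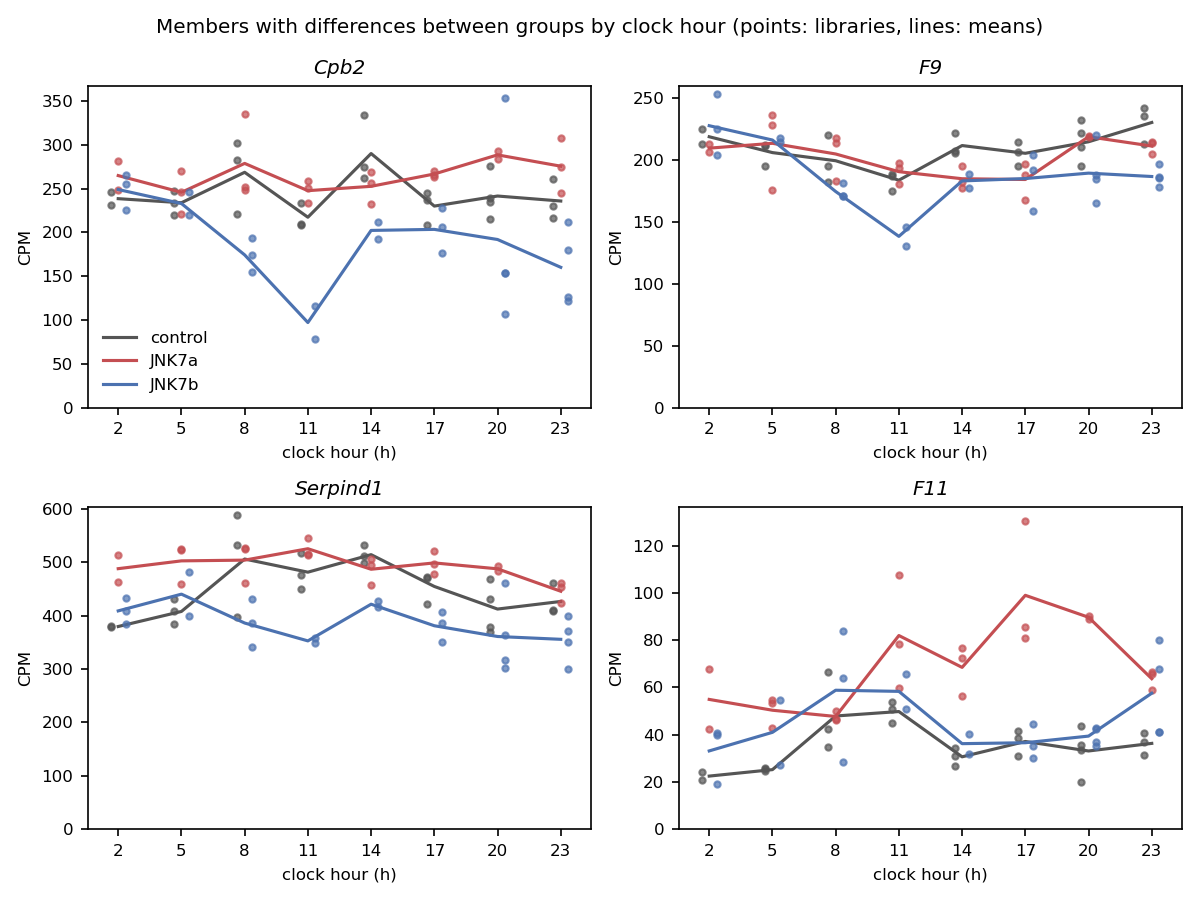
Level in CPM of Cpb2, F9, Serpind1 and F11 at each clock hour, with points for libraries (shifted sideways by group) and lines for group means, on axes that start at 0. The JNK7b line of Cpb2 falls from 248.9 CPM at 2 h to 97.1 CPM at 11 h, where 2 libraries were measured, and F11 in JNK7a reaches 98.9 CPM at 17 h.

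Within JNK7b itself, the same shift between sets of hours was called for 8 members, beside 19.1% of all genes. F11 was higher at 8, 11, 20 and 23 h (0.53, SE 0.16), and Kng1, Kng2, F9, Serpind1, Proc, Cpb2 and Hrg were lower, from -0.18 in Serpind1 and Proc to -0.55 in Cpb2. In control 2 members were called, beside 1.85% of all genes, F11 (0.54, SE 0.15) and Kng2 (-0.20, SE 0.06). In JNK7a none was called (3 at unadjusted p below 0.05), beside 0.0833%. F11 and Kng2 thus shifted alike in control and JNK7b, and the difference between the groups was not called for either.

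**Figure D5:**
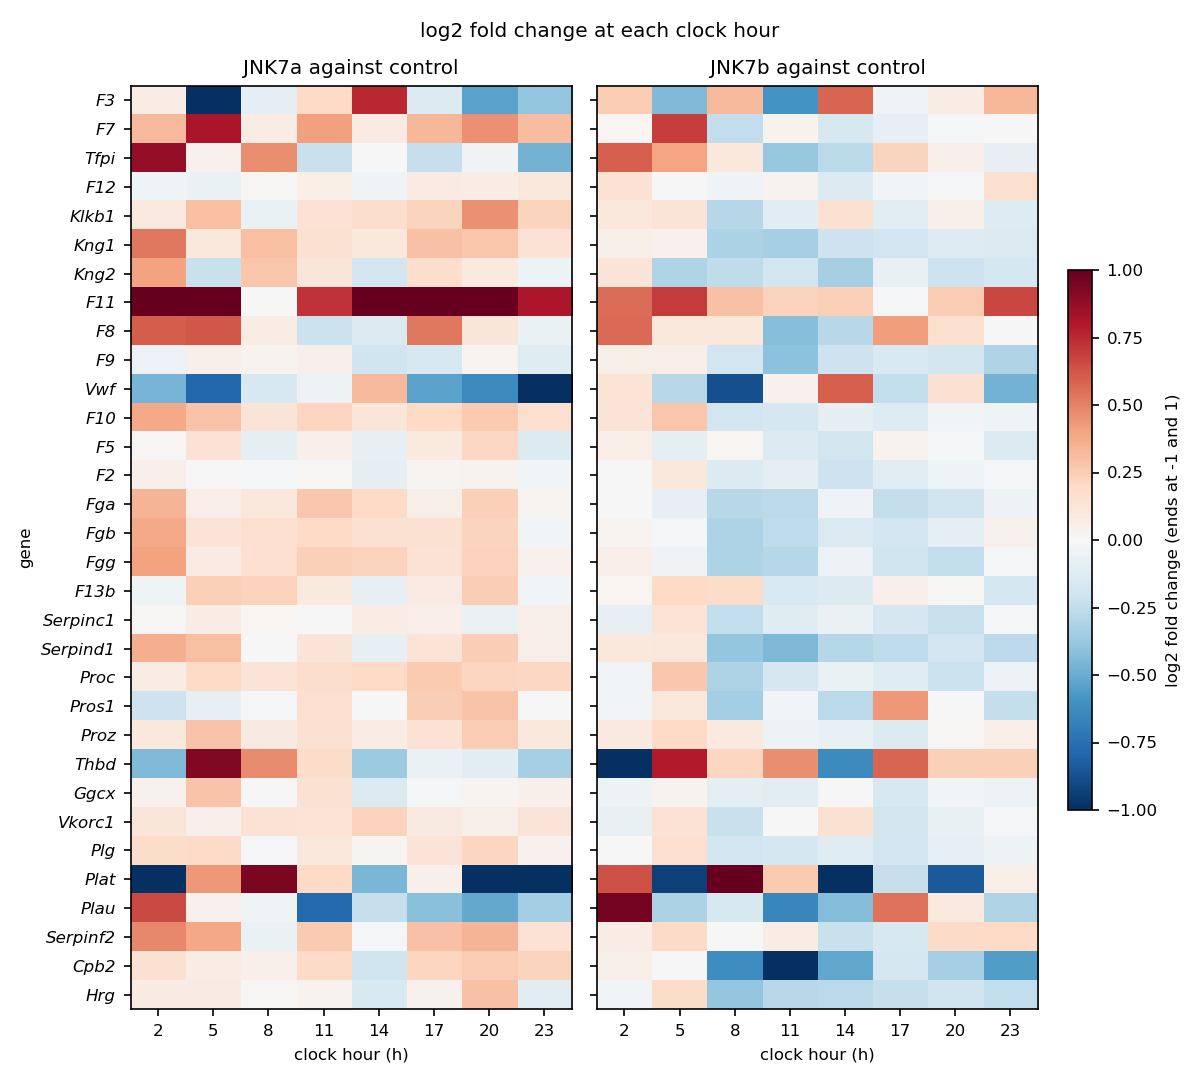
Log2 fold change of each member at each clock hour in JNK7a against control, left, and JNK7b against control, right, with colours that end at -1 and 1. F10 is above 0 in JNK7a at all 8 hours, and Cpb2 in JNK7b is at -1.16 at 11 h. Genes of low level such as Plat, Plau and Thbd scatter widely.

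Genes around the pathway were counted on lists of related function. Of 19 other protease inhibitors and cofactors tested, 8 were higher and 2 lower in JNK7a. Serpine2 (protease nexin-1, a thrombin inhibitor) rose from 9.35 ± 4.34 to 22.3 ± 9.49 CPM, a log2 change of 1.26 (SE 0.18), and Serpina1e, an antitrypsin paralog, by 2.21 (SE 0.34). Pzp, a broad protease inhibitor of plasma, rose by 0.36 (SE 0.06), while Gas6, a vitamin K-dependent protein related to protein S, fell by 0.75 (SE 0.12). In JNK7b 2 of these were higher and 2 lower. Of them Serping1 (C1 inhibitor, which also blocks factor XIIa and kallikrein) rose by 0.21 (SE 0.05), and Apoh fell by 0.11 (SE 0.04). The Serpina1 paralogs share sequence, so their split is uncertain.

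Of 10 other fibrinolysis genes tested, 2 were higher and 3 lower in JNK7a and none was called in JNK7b. Anxa2 and S100a10, which together form a plasminogen receptor on cells, fell by 1.71 (SE 0.16) and 0.65 (SE 0.10) in JNK7a. Habp2 (a plasma protease that can activate factor VII) and Vtn (vitronectin, which stabilises plasminogen activator inhibitor) rose by 0.31 (SE 0.04) and 0.25 (SE 0.06). Of 9 receptors and proteases tested, 2 were higher in JNK7a and 3 lower in JNK7b. F2r, a thrombin receptor, rose by 0.46 (SE 0.08) in JNK7a and fell by 0.22 (SE 0.08) in JNK7b. Asgr2, a subunit of the receptor that clears desialylated plasma proteins, rose by 0.25 (SE 0.05) and fell by 0.21 (SE 0.05) in the same groups. Of 7 folding and secretion genes, 3 were higher and 2 lower in JNK7a and none was called in JNK7b. Pcsk6, a proprotein convertase, fell by 0.32 (SE 0.05) and Vkorc1l1, a paralog of Vkorc1, by 0.20 (SE 0.04). Calu, an inhibitor of the carboxylase, rose by 0.17 (SE 0.03) and Lman1, the cargo receptor for factors V and VIII, by 0.16 (SE 0.04).

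Among regulators, 3 of 23 hepatocyte transcription factors were higher and 3 lower in JNK7a, and 2 were higher and 2 lower in JNK7b. Foxa3 rose in both, by 0.53 (SE 0.07) and 0.25 (SE 0.07), and Ppara fell by 0.35 (SE 0.07) in JNK7a. Of 19 acute phase partners, plasma protein genes that inflammation raises and receptors and regulators of that response, 4 were higher and 1 lower in JNK7a and 2 higher and 1 lower in JNK7b. Il1r1, the interleukin-1 receptor, rose by 1.00 (SE 0.09) in JNK7a, and Cp (ceruloplasmin) rose by 0.24 (SE 0.04) in JNK7a and 0.33 (SE 0.04) in JNK7b. Saa3, a serum amyloid A gene, rose by 1.17 (SE 0.21) in JNK7a and 1.05 (SE 0.21) in JNK7b, and Lbp fell by 0.40 (SE 0.06) in JNK7b. Saa3 varied widely in JNK7b, at 7.95 ± 8.48 CPM against 3.41 ± 2.06 in control. The sum of the 19 partners reached 37986 CPM in the highest JNK7b library, beside a JNK7b median of 9275. In control it reached 19005 beside a median of 8761, and in JNK7a 13860 beside 9068. Of the 18 clock and PAR bZIP genes, 2 were lower in JNK7a and 3 in JNK7b, including Hlf in both, by -0.15 (SE 0.05) and -0.20 (SE 0.05). These lists, like the members, were chosen with earlier results of these data known and are given as counts.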

How the data were processed

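Per the labels' protocols, total liver RNA was purified with DNase treatment, poly(A)-enriched and sequenced as paired reads of 150 bases. The submitters' processing notes name cutadapt, Salmon and mm10. Versions, annotation and strand setting: not given in the sources used here. The authors deposited estimated counts and TPM values per gene symbol, 55487 lines each. Lines sharing a symbol (234) were summed and the estimated counts rounded to whole numbers.

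Genes were filtered with filterByExpr by group, scaled with TMM and tested with edgeR 4.0.16 (quasi-likelihood, robust) in R 4.3.3. One fit had a mean for each of 24 cells of group and hour (45 residual degrees of freedom), the other a 24 h cosine and sine per group (60). To test a 12 h component, a 12 h cosine and sine per group were added to the latter. Comparisons weight the 8 hours equally. CPM are TMM-scaled. A standard error of a log2 fold change is its absolute value divided by the square root of the quasi-likelihood F. Peak hours, their standard errors and peak-to-trough folds come from least squares. That fit set a 24 h cosine and sine to log2 CPM within each group. P-values were adjusted over 14398 genes. limma 3.58.1 and DESeq2 1.42.0 served as alternatives. Fits that leave out a library or an hour kept the genes and trended dispersion of the full fit. The steps were tested on simulated data. Totals were 26.8 M to 48.6 M counts. edgeR put the shared coefficient of variation between libraries at 0.248. For the lowest members, such as Plat, counting error also limits precision. Positions and shared 31-base words come from GENCODE M21 (mm10), sequences from RefSeq.

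All 32 members are reported by role. Of each other list, up to 4 called genes with the smallest p and at least 1 CPM per comparison could be named. Mapk8, Mapk9 and Dbp were named whatever their values, and genes next to members were named after their values were seen. Members and lists were chosen with earlier results of these data known. Within the cells of group and hour, none of 69 pairs of libraries held identical values. Pairs from different cells were not compared.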

Additional observations from a re-analysis of the deposited data

Results flagged for a closer look

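In the 3 cells of group and hour with 4 libraries, 1 library stood far from the rest, by Dixon's criterion, in 13 of 96 checks, where chance flags about 1 in 20. JNK7b 20 h replicate 3 accounted for 7 of these. It was above the others in Kng2 (209.4 CPM), F10 (316.0), F5 (742.8), Proz (362.8), Plg (2089) and Serpinf2 (635.9 CPM, the others 354.6 to 379.9) and below them in Vkorc1 (74.7). Averaged over the 32 members it lay 0.23 above its cell on the log2 scale, farther than any other library. Control 20 h replicate 2 stood apart in Kng2 (225.9 CPM), Thbd (1.69) and Vkorc1 (92.8). Control 20 h replicate 1 was low in Fga (1804 CPM) and Proc (319.9), and control 20 h replicate 4 in Plau (0.783 CPM).

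The shift of Cpb2 between the sets of hours differed between JNK7b and control by -0.509 on the log2 scale, by a test of the difference itself. Because the sets were taken from earlier results of these data, this describes those hours and is no independent support. The call ended with no filter on low counts and without the libraries that stand apart.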

How the results depend on the processing

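The members' counts were recomputed under other scalings, filters, tools, designs and subsets of libraries. In 1 further alternative, chosen after seeing the data, members were summed with partners that share part of their sequence. That alternative left the counts of the 3 comparisons within 1.5 times. The sets of hours and both libraries that stand apart were also chosen with earlier results of these data known. Of 2205 recomputed fold changes of single members, 1925 kept their sign and side of the threshold, 153 lost the call and 28 gained one. In 99 the sign changed, 98 of them in members called neither before nor after. The other was F9 in JNK7b against JNK7a, at 0.0433 with hours 2, 5, 14 and 17 alone. JNK7a against control, 14 in the main fit, gave 7 on log2(TPM + 1) and on log2(TPM + 0.1) and 6 with hours 8, 11, 20 and 23 alone. Over all genes the calls were 2984 of 14398 in the main fit, 3127 and 3169 on the TPM scales and 1300 of 14233 with those hours. JNK7b against control, 8 in the main fit, gave 0 with hours 2, 5, 14 and 17 alone, 5 without any one of clock hours 8, 11, 14 and 23, and 5 to 11 without single libraries. All-gene calls there were 1935 of 14398 in the main fit and 16 of 14406 with hours 2, 5, 14 and 17 alone. JNK7b against JNK7a, 21, gave 9 with hours 2, 5, 14 and 17 alone, beside 3207 of 14398 and 1108 of 14406 genes. The rhythm in JNK7a, 11, gave 17 with voom weights, beside 3774 and 4776 of 14398 genes. The hourly difference in JNK7b, 0, gave 3 with voom weights and 0 to 1 without single libraries. Over all genes it was called for 248 in the main fit and 547 with voom weights. The shift between sets of hours in JNK7b, 1, gave 2 with median-ratio size factors, 3 with voom weights, 0 with no filter, 0 without both libraries that stand apart, and 0 to 3 without single libraries. The causes were not tested. Fewer hours also mean fewer libraries.

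Replicate numbers are shared between groups but gave no sign of pairing the libraries. Over 62 same-numbered pairs the median correlation of deviations was -0.013, and 2 exceeded 0.1. Those 2 were JNK7a against control at 2 h, with the same value of 0.113. In cells of 2 libraries the deviations from the cell mean mirror each other, so the pairs are not separate checks. With the number as a replicate block the counts were 13, 7 and 19, with 10, 12 and 8 rhythmic members and 1 for the shift. Over all 14398 genes the block gave 2785, 1495 and 2674 calls, 3352, 3801 and 2258 rhythmic genes, and 610 for the shift. Cells of 2 libraries and the levels of Plat, Plau and F3 limit precision.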
